A study of Homo sapiens with 17 samples.

Results

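RAS signaling for 5 days was compared with normal proliferation in BJ cells, a line of human skin fibroblasts immortalized with hTERT, the catalytic subunit of telomerase. The comparison used 7 of the 17 samples of the series. RNA-Seq, which measures transcript levels, was available for 2 proliferating samples and 2 samples at day 5, and Ribo-Seq, which counts the messenger RNA fragments protected by ribosomes, for 2 proliferating samples and 1 sample at day 5. The day 5 cells, called pre-senescent, carried hTERT and a tamoxifen-inducible RASG12V, a hyperactive form of RAS, and had been kept in 4-OHT-tamoxifen for 5 days. The labels of the proliferating samples give normal conditions and name no RAS construct or tamoxifen, so the drug and the active oncogene cannot be told apart in this comparison. All 7 samples came from the same cell line, and the labels do not say how many separately engineered lines or cultures stood for each condition.

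RAS proteins pass growth signals from the cell surface to the RAF, MEK and ERK kinases. ERK switches on growth genes and also the phosphatases and adaptors that dampen the pathway. In normal fibroblasts a persistently active RAS first drives division and later leads to senescence, a lasting arrest held by p53 with its target CDKN1A (p21) and by CDKN2A (p16) with the RB proteins. Senescent cells secrete proteases, growth factors and cytokines. Messenger RNAs of ribosomal proteins carry a run of pyrimidines at their 5′ end, the 5′ TOP motif, through which the mTOR kinase sets how often ribosomes load on them.

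The deposited table held 1 transcript per gene, 9699 in all, as FPKM (fragments per kilobase of transcript, scaled to the mapped reads of the library) with values below 1 set to 1. The control columns and the day 5 RNA column each held 1 pooled value for 2 libraries, and no replicate values were analysed here. Hence no difference below has a replicate check, no test was possible, and values are described by their size. A log2 ratio is the log2 of day 5 FPKM over proliferating FPKM, the difference in translation efficiency (TE) is the Ribo-Seq log2 ratio minus the RNA-Seq log2 ratio, and a transcript was called higher or lower at a ratio of at least 2-fold. Transcripts averaging under 5 FPKM over the compared columns were not counted.

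The only measure of spread in the table was a further proliferating culture, C3, sequenced in another run. Between C3 and the pooled control, 505 of 7787 counted transcripts (6.49%) differed at least 2-fold in RNA, whereas 240 of 7691 (3.12%) did so between day 5 and the control of its own run. The SD of the RNA log2 ratio was 0.60 for C3 against the control and 0.42 for day 5 against the control. In Ribo-Seq 1259 transcripts (16.3%) differed between the proliferating columns and 1052 (13.8%) at day 5, with SDs of 0.80 and 0.75. For TE the counts were 458 of 7159 (6.4%) and 678 of 7075 (9.58%), so that TE was the measure in which day 5 had more calls than the proliferating pair. The Ribo-Seq library titled C3 has a condition field that names day 14 senescence, so its values are used below by title. For STC1 and RMI2 the footprints ran with the titles. STC1 was at 210 footprint FPKM in the library titled C3 and 4720 in that titled S, with 41.1 and 700 FPKM in the RNA columns of the same titles, and RMI2 was at 20.0 and 1.00 footprint FPKM with 10.9 and 1.25 FPKM in RNA. The run and culture differences held in C3 cannot be told apart, and RNA levels in C3 are given beside the groups that they touch.

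The level of HRAS, a RAS family gene, did not mark the induced samples. HRAS stood at 2415 FPKM in the proliferating control and at 2102 FPKM at day 5 in RNA-Seq, and at 4769 and 4428 FPKM in Ribo-Seq. C3, quiescent, day 14 and transformed cells had 1284, 1254, 2087 and 312 RNA FPKM, so the control was not below the RAS columns. Tamoxifen activates such a fusion protein and not its gene, so HRAS RNA gives no check of induction, and reads of a construct and of the cell's own gene cannot be told apart. ESR1, the estrogen receptor gene whose hormone-binding part serves as the switch in such fusions, stood at 19.2 and 15.9 RNA FPKM and at 332 and 214 Ribo-Seq FPKM. C3, quiescent, day 14 and transformed cells had 102, 9.31, 144 and 1.0 RNA FPKM of ESR1. Whether the proliferating cells carried the construct was not tested. NRAS RNA was 28.4 FPKM in the control and 36.7 FPKM at day 5, while its Ribo-Seq value was 42.7 and 27.0 FPKM, a TE difference of -1.03.

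Fibroblast markers were present in both conditions. All 13 were counted, with vimentin (VIM) at 4334 FPKM in the control and 4703 FPKM at day 5. Yet 5 of them were at least 2-fold lower at day 5 and 0 higher, beside 1.66% and 1.46% of all counted transcripts. The RNA median of the markers was -0.66 at day 5, 1.65 in C3 against the control and -2.09 at day 5 against C3. Of the markers of other cell types, 3 of 10 epithelial, 2 of 8 immune and 0 of 7 endothelial genes were listed in the table. The epithelial KRT19 and the monocyte gene CD14 were at the floor of 1 FPKM in both RNA columns. KRT18 was 186 and 125 FPKM and the lysosomal CD68, also made by fibroblasts, 83.6 and 132 FPKM.

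At day 5, 112 transcripts were at least 2-fold higher in RNA (1.46% of those counted) and 128 at least 2-fold lower (1.66%). The median log2 ratio over all counted transcripts was 0.05. In Ribo-Seq 397 of 7613 transcripts were higher (5.21%) and 655 lower (8.6%), with a median of -0.14, so that day 5 footprint values sat below the control across the table. The RNA and Ribo-Seq shares over all counted transcripts are the background for the list counts below. Of the higher RNA calls 29 had under 5 FPKM in the control, and of the lower calls 32 had under 5 FPKM at day 5. These low-level transcripts were counted because of the column in which they were high. Against C3 in place of the run's own control, 105 of the 112 higher transcripts were also higher, 77 of them at least 2-fold, and 124 of the 128 lower transcripts were also lower, 83 of them at least 2-fold.

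STC1 and SERPINB2 had the largest RNA increases of all counted transcripts. STC1 (ENST00000290271), a secreted glycoprotein hormone, was at 39.4 FPKM in the control, 41.1 FPKM in C3 and 617 FPKM at day 5, 15.7-fold above the control, and its footprints went from 129 to 2446 FPKM. SERPINB2, an inhibitor of urokinase, was at 15.2 FPKM in the control, 22.9 FPKM in C3 and 213 FPKM at day 5, a 14-fold difference in RNA and a 13.9-fold difference in footprints. Both proliferating columns were far below day 5 for these genes. G0S2, an inhibitor of fat breakdown, went from 2.53 to 30.8 FPKM in RNA and from 1.73 to 76.7 FPKM in footprints. The bone matrix phosphoprotein SPP1 (5.47 to 43.2 FPKM) and the decoy receptor IL13RA2 (2.86 to 21.8 FPKM) were 7.9-fold and 7.61-fold higher. The endothelial proteoglycan ESM1 was 5.07-fold higher, at 10.1 FPKM in the control and 51.1 FPKM at day 5. The amino acid transporter SLC6A15, the leucine-rich repeat protein LRRC17 and the actin bundler LCP1 were 7.24-fold, 6.54-fold and 5.47-fold higher. LCE2A, a cornified envelope gene of a clustered family whose copies may share reads, was 8.1-fold higher.

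Enzymes that cut the extracellular matrix, and the inhibitors and activators around them, were the list with the largest share of higher members. Of 20 counted members of the matrix protease list (34 genes, 26 listed), 8 were at least 2-fold higher in RNA, beside 1.46% of all transcripts. None was called lower, and the list's median was 0.41. Interstitial collagenase MMP1 stood at 1289 FPKM in the control, 796 FPKM in C3 and 7186 FPKM at day 5, and its footprints at 3158 and 15123 FPKM. Stromelysin MMP3 stood at 399 FPKM in the control, 43.4 FPKM in C3 and 2190 FPKM at day 5. For MMP3 the log2 ratio of C3 over the control was -3.20, larger in size than the 2.46 of day 5 over its own control. Urokinase PLAU was at 111 and 332 FPKM, its receptor PLAUR at 81.1 and 136 FPKM (log2 ratio 0.74, not called), and the membrane-bound collagenase MMP14 at 122 and 324 FPKM. The lysosomal protease CTSL1 was at 68.0 and 192 FPKM, CTSK had a log2 ratio of 1.39 (141 FPKM in C3 and 222 FPKM at day 5, less than 2-fold), and the serpin SERPINB7 1.33.

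Other inhibitors of these proteases were not among the higher members. TIMP1, TIMP2 and TIMP3 had log2 ratios of -0.33, -0.39 and -0.24. In footprints 8 of 21 members were at least 2-fold higher, beside 5.21% of all transcripts, and 0 lower. The footprint median was 0.78, which is 0.92 above the median of all transcripts. The list's median depended on the control: it was 0.67 for C3 against the control, and with C3 as the control it was -0.01, with 9 members at least 2-fold higher and 7 at least 2-fold lower.

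Genes that ERK induces were partly higher. Their list holds phosphatases and adaptors that restrain the pathway and also immediate early and other transcription factors. Of 25 counted members of this ERK feedback list (38 genes, 30 listed), 5 were at least 2-fold higher, beside 1.46% of all transcripts, and 0 lower. A ratio above 0 was found for 20, with a list median of 0.40. The ERK phosphatase DUSP6 was at 20.8 FPKM in the control and 57.2 FPKM at day 5, and its footprints at 60.6 and 138 FPKM. SPRY2, an adaptor that blocks RAS activation, was at 31.6 and 81.7 FPKM, and its footprints at 4.22 and 21.8 FPKM. The immediate early factor EGR1 was at 23.5 and 53.8 FPKM in RNA and at 18.5 and 98.4 FPKM in footprints, the largest Ribo-Seq log2 ratio among the counted members (2.41). PHLDA1 and the ETS factor ETV1 were also called, with log2 ratios of 1.42 and 1.23, but the footprints of ETV1 did not follow (-0.25).

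Other members of the pathway differed less, or in footprints alone. DUSP5, a nuclear ERK phosphatase, sat at the threshold in RNA (36.7 and 73.4 FPKM) with footprints of 21.6 and 21.3 FPKM. SPRY4 and JUNB passed 2-fold in footprints alone, with Ribo-Seq log2 ratios of 1.64 and 1.22. FOSL1 (258 and 309 FPKM), JUN (61.4 and 73.9 FPKM) and MYC (41.0 and 50.9 FPKM) differed by less than 1.5-fold, and FOSL2 was lower, at 21.9 and 11.7 FPKM. The list's median was -0.17 in C3 against the control and 0.63 at day 5 against C3. C3 had 42.5 FPKM of EGR1 and 29.2 FPKM of DUSP6, so that neither was 2-fold higher at day 5 against C3.

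Growth factors and cytokines moved in both directions. Of 19 counted growth factor ligands (46 genes, 28 listed), STC1 and EREG were at least 2-fold higher and CYR61 at least 2-fold lower, with a median of -0.10. Epiregulin (EREG), a ligand of the EGF receptor, went from 7.56 to 23.3 FPKM and its footprints from 23.0 to 135 FPKM. CYR61, a matrix-bound ligand of integrins, went from 387 to 157 FPKM. The lymphatic growth factor VEGFC (43.7 and 81.0 FPKM) and the stress cytokine GDF15 (15.2 and 28.6 FPKM) stayed under 2-fold, as did VEGFA, HBEGF and TGFB1.

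Of 13 counted members of the inflammatory secretome list (45 genes, 25 listed), 2 were at least 2-fold higher and 4 lower, beside 1.46% and 1.66% of all transcripts. The neutrophil chemokine IL8 was at 7.14 FPKM in the control and 28.0 FPKM at day 5, with footprints at 21.6 and 89.3 FPKM. IL1B was at 1.22 and 10.6 FPKM, and its Ribo-Seq value was at the floor in the control and 5.17 FPKM at day 5. The lower members were the monocyte chemokine CCL2 (55.5 and 7.51 FPKM), the stromal chemokine CXCL12 (55.1 and 11.9 FPKM), the pentraxin PTX3 (170 and 74.5 FPKM) and the macrophage growth factor CSF1 (15.0 and 6.69 FPKM). CCL2 was lower in footprints too, by 9.56-fold. C3 had 81.0 FPKM of CCL2, 34.4 FPKM of CXCL12, 91.7 FPKM of PTX3 and 12.6 FPKM of CSF1 in RNA, all above the day 5 values, but for PTX3 and CSF1 by less than 2-fold.

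Enzymes of sterol synthesis shared a modest increase. Of 23 counted members (26 genes, all listed), 22 had an RNA ratio above 0, with a median of 0.59, but only MSMO1, FDFT1 and HMGCS1 passed 2-fold. The squalene synthase FDFT1 was at 46.1 and 96.4 FPKM in RNA and at 118 and 273 FPKM in footprints. In footprints 8 of 23 members were at least 2-fold higher, beside 5.21% of all transcripts, and 0 lower, with a list median of 0.68. The list's median was 0.20 in C3 against the control and 0.42 at day 5 against C3, where FDFT1 and MSMO1 no longer passed 2-fold (FDFT1 was at 56.3 FPKM in C3). Glycolysis genes differed little, with 0 of 22 counted members past 2-fold and a median of 0.09.

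Of the 23 lists, that of the fibrillar extracellular matrix had the most members called lower in RNA by number, while fibroblast markers had a larger share (5 of 13). Of 42 counted matrix members (52 genes, 51 listed), 13 were at least 2-fold lower and 0 higher, beside 1.66% and 1.46% of all transcripts. A ratio below 0 was found for 38, with a median of -0.69. The small proteoglycan decorin (DCN) was at 27.6 FPKM in the control, 164 FPKM in C3 and 3.68 FPKM at day 5, 7.50-fold below its control. Lumican (LUM) was at 33.6, 155 and 5.38 FPKM in the same order. The fibrillar collagens COL3A1 (55.9 and 12.7 FPKM) and COL1A1 (371 and 150 FPKM), the basement membrane collagens COL4A1 and COL4A2 (log2 ratios of -1.46 and -1.31), biglycan (BGN, log2 ratio -2.01) and thrombospondin THBS1 (415 and 158 FPKM) were all called lower. COL1A2, the partner chain of COL1A1, was at 384 and 219 FPKM, and fibronectin (FN1) at 915 and 577 FPKM, below 2-fold. COL7A1, the anchoring fibril collagen, had the highest ratio of the list (0.67).

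The matrix genes differed more between the 2 proliferating columns than between day 5 and its control. The list's median was 0.95 in C3 against the control, and -1.61 at day 5 against C3, with 28 members at least 2-fold lower. Day 5 was thus below both proliferating columns, by an amount that depended on which was used. Of the 13 fibroblast markers 5 were at least 2-fold lower, all of them matrix genes except the growth factor receptor PDGFRB (36.2 and 11.4 FPKM).

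Other transcripts among the 12 lowest RNA ratios had varied functions. The insulin-like growth factor binding proteins IGFBP3 (17.3 and 2.77 FPKM) and IGFBP5 (393 and 82.3 FPKM) were 6.25-fold and 4.78-fold lower. Netrin NTN4 (35.5 and 6.92 FPKM), the complement protease MASP1 (20.7 and 4.12 FPKM) and the oxytocin receptor OXTR (87.6 and 19.1 FPKM) were 5.13-fold, 5.03-fold and 4.59-fold lower. The pregnancy glycoprotein PSG5, whose family members are near copies and may share reads, was 4.92-fold lower. C3 stood above the control for DCN, LUM, IGFBP3, IGFBP5, MASP1, PSG5, OXTR, COL3A1 and BGN, and below it for NTN4 and CXCL12.

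Contractile genes were lower with the matrix. Of 16 counted members (24 genes, 21 listed), 15 had a ratio below 0 and 2 passed 2-fold, with a median of -0.68 against 0.28 in C3. The smooth muscle actin ACTG2 was at 22.4 and 8.15 FPKM, but C3 had 2.13 FPKM, below day 5, so that its direction depended on the control. Transgelin (TAGLN) was at 300 and 125 FPKM in RNA and at 4098 and 1139 FPKM in footprints. In footprints 6 of 17 members were at least 2-fold lower, beside 8.6% of all transcripts. These members included the tropomyosin TPM1 (1059 and 420 FPKM) and the myosin light chain MYL9 (1378 and 577 FPKM).

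Transcripts of mitosis were slightly but almost uniformly below the control of the run. Of 78 counted members (81 genes, 79 listed), 77 had a ratio below 0, with a median of -0.53. At least 2-fold lower were 9 members, beside 1.66% of all transcripts, and 0 were higher. The largest differences were in the cell-cycle factor MYBL2 (46.5 and 16.6 FPKM) and the mitotic kinesin KIF20A (64.9 and 27.7 FPKM). The kinase CDK1 was at 37.1 and 25.1 FPKM, cyclin B1 (CCNB1) at 116 and 82.7 FPKM and PLK1 at 105 and 66.4 FPKM. The proliferation marker MKI67 was at 73.9 and 37.0 FPKM, at the edge of 2-fold. In footprints 21 of 77 members were at least 2-fold lower, beside 8.6% of all transcripts. The footprint median of the list was -0.86, or -0.72 relative to all transcripts.

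The same difference separated the proliferating cultures from each other. The mitosis median in C3 against the control was -0.53, and at day 5 against C3 it was -0.09, with 1 member at least 2-fold lower, and MYBL2 and KIF20A, at 27.8 and 38.1 FPKM in C3, no longer passed 2-fold. Day 5 thus had mitotic transcripts close to the level of one proliferating column and below that of the other. DNA replication genes gave a median of -0.31 over 60 counted members (66 genes, 63 listed). Of these, 2 were called lower (thymidylate synthase TYMS and the helicase subunit MCM6) and 1 higher, beside 1.66% and 1.46% of all transcripts. The list's median was -0.59 in C3 against the control and turned to 0.32 at day 5 against C3. There TYMS and MCM6 no longer passed 2-fold (75.9 and 25.7 FPKM in C3). The higher member, the repressor E2F7, was at 18.9 FPKM in the control, 9.44 FPKM in C3 and 43.1 FPKM at day 5.

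Genes of the nuclear lamina and chromatin followed the mitosis list. Of 23 counted members (25 genes), 18 had a ratio below 0, with a median of -0.47 against -0.57 in C3. Lamin B1 (LMNB1), whose loss is a mark of senescent cells, was at 58.3 and 25.9 FPKM in RNA and at 216 and 88.0 FPKM in footprints. The chromatin protein HMGB2 was at 84.8 and 39.7 FPKM. C3 had 32.3 FPKM of LMNB1 and 69.0 FPKM of HMGB2, so that neither was 2-fold lower at day 5 against C3. In footprints 9 of 23 members were at least 2-fold lower, beside 8.6% of all transcripts. The heterochromatin protein CBX5 and HMGB1 were among these members with little RNA difference (log2 ratios of -0.41 and -0.25).

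The inhibitors that hold senescent arrest were not called higher against the control of the run. CDKN1A, the p53 target p21, was at 80.8 FPKM in the control and 107 FPKM at day 5, a log2 ratio of 0.40, while C3 was 1.09 above the control on the log2 scale. CDKN2A was at 17.2 and 14.2 FPKM, a log2 ratio of -0.27. C3 was at -1.35 against the control for CDKN2A, below day 5, so that its direction depended on the control. Of 9 counted CDK inhibitors and RB proteins (11 genes), 8 had a ratio below 0, and the INK4 inhibitors CDKN2C (21.5 and 6.98 FPKM) and CDKN2D (15.0 and 7.33 FPKM) were at least 2-fold lower. CDKN2D was at 11.8 FPKM in C3, less than 2-fold above day 5. In footprints 5 of 8 members were at least 2-fold lower, beside 8.6% of all transcripts. Among these members CDKN1B (p27) went from 70.3 to 20.3 FPKM, with 12.8 and 7.52 FPKM in RNA.

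Targets of p53 likewise stayed near the control of the run. Of 29 counted members (44 genes, 37 listed), 1 was at least 2-fold higher, with a median of 0.12. This member was the decoy death receptor TNFRSF10D (28.9 and 66.2 FPKM). The ubiquitin ligase MDM2 (14.9 and 15.9 FPKM), SESN2 (14.6 and 14.5 FPKM) and GADD45A (94.2 and 125 FPKM) differed by less than 1.5-fold. The pro-apoptotic PMAIP1 and GDF15 had log2 ratios of 0.82 and 0.91. The list's median was 0.29 in C3 against the control and -0.21 at day 5 against C3. C3 was below the control for GADD45A (-0.71), PMAIP1 (-0.24), GDF15 (-1.48) and SESN2 (-0.82), and above it for MDM2 (0.46) and TNFRSF10D (0.12). Against C3, GADD45A, PMAIP1 and GDF15 passed 2-fold at day 5, so their calls depended on the control.

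Of 26 counted interferon-induced genes (48 genes, 46 listed), 0 were at least 2-fold higher, beside 1.46% of all transcripts, and 2 lower, IFI6 (48.5 and 17.0 FPKM) and the transcription factor IRF9 (17.9 and 8.81 FPKM), with a median of -0.18. IRF9 was at 13.9 FPKM in C3, less than 2-fold above day 5. Genes of the amino acid stress response that ATF4 drives had 2 of 38 counted members lower, the neutral amino acid transporter SLC1A4 (9.19 and 2.79 FPKM) and the serine synthesis enzyme PSAT1 (76.0 and 34.9 FPKM). Their footprints were lower in 10 of 38 members, beside 8.6% of all transcripts, including asparagine synthetase (ASNS, 89.4 and 27.2 FPKM) and PHGDH (289 and 102 FPKM), the first enzyme of serine synthesis. The list's RNA median was -0.18 at day 5, -0.67 in C3 against the control and 0.49 at day 5 against C3, so the direction depended on the control. PSAT1 was at 36.9 FPKM in C3, close to day 5.

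Values at day 14 of RAS, which has C3 as its own control, are set beside day 5 here. Of the 112 transcripts higher at day 5, 55 (49.1%) were at least 2-fold higher at day 14, where 7.61% of all counted transcripts were, and they made up 9.5% of the 579 higher at day 14. Of the 128 lower at day 5, 92 (71.9%) were at least 2-fold lower at day 14, where 10.5% of all were, and they made up 11.5% of the 803 lower at day 14. Opposite 2-fold calls at the 2 times numbered 1 among the higher and 2 among the lower transcripts. STC1, SERPINB2 and MMP3 had day 14 log2 ratios of 4.09, 3.56 and 4.50. G0S2 (0.34) and LCP1 (from the floor of 1 FPKM in C3 to 2.01 FPKM) stayed low at day 14, and NTN4, among the lowest at day 5, was at 22.6 and 32.1 FPKM.

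The growth arrest lists were far apart between the times. The mitosis median was -0.53 at day 5 and -3.80 at day 14, when 77 members were at least 2-fold lower, and the DNA replication median went from -0.31 to -2.50. CDKN1A was 0.40 at day 5 and 2.25 at day 14, CDKN2A -0.27 and 2.05, and the p53 target median 0.12 and 0.78. The controls of the 2 times differed here. The log2 ratio of C3 over the day 5 control was 1.09 for CDKN1A, -1.35 for CDKN2A and 0.29 for the p53 target median. IL8 and IL1B had log2 ratios of 1.97 and 3.12 at day 5 and of 4.69 and 4.72 at day 14. The fibrillar matrix medians were -0.69 and -1.62, and the sterol synthesis medians 0.59 and 0.49. In quiescence after serum depletion, which shares its control with day 5, the medians were 2.29 for sterol synthesis, -1.11 for mitosis, 0.36 for ERK feedback and 0.12 for fibrillar matrix.

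**Figure D1:**
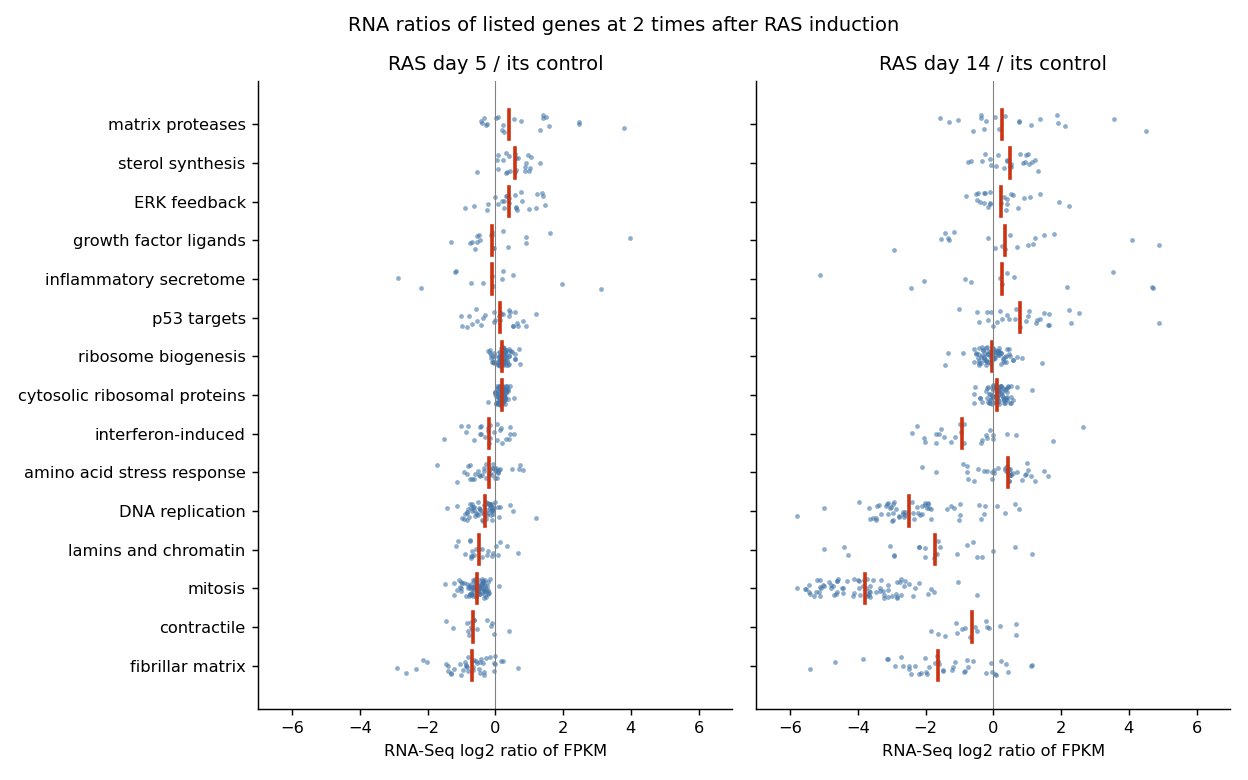
RNA-Seq log2 ratio of FPKM for the counted members of 15 gene lists, 1 point per transcript, at day 5 over the control of its run (left) and at day 14 over C3 (right), with the list median as a red bar and a gray line at 0. The mitosis bar lies at -0.53 on the left and at -3.80 on the right, while the matrix protease bar is right of 0 in both panels (0.41 and 0.25).

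Differences in RNA were largely carried into ribosome footprints. Across the 7075 transcripts counted in both assays, Pearson's r between the RNA and Ribo-Seq log2 ratios was 0.48 and Spearman's rho 0.332, a description across transcripts of the same libraries. Of the 112 higher transcripts 108 were counted in Ribo-Seq, of which 102 were higher in footprints and 78 by at least 2-fold, with a median TE difference of -0.02. Of the 128 lower transcripts 117 were counted, of which 115 were lower in footprints and 76 by at least 2-fold, with a median TE difference of 0.17. Opposite TE differences of at least 2-fold were found in 9 of the higher and 4 of the lower transcripts.

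TE was 2-fold higher for 196 of 7075 transcripts (2.77%) and 2-fold lower for 482 (6.81%), and 71.1% of these calls were toward lower TE. The median TE difference over all transcripts was -0.18, and the split of the calls rested on this shift: with each ratio centred on its median 46.1% of TE calls were lower, and with columns rescaled to equal sums 34.6%. The lower share of Ribo-Seq calls likewise went from 62.3% to 47% and 42.5%. TE medians of lists are therefore given also relative to the median of all transcripts. Of the transcripts with a TE call, 165 of the 196 higher and 428 of the 482 lower had RNA within 1.5-fold of the control, so most TE calls rested on the footprint values, which for day 5 come from 1 library. With transcripts split into 4 equal bins by footprint level, the share with lower TE went from 9.21% in the lowest bin to 3.84% in the highest, and the share with higher TE from 7.18% to 0.452%.

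Ribosomal proteins had more RNA and fewer footprints at day 5. All 82 listed cytosolic ribosomal proteins (of 85) were counted, 78 had an RNA ratio above 0 with a median of 0.20, and 78 had a Ribo-Seq ratio below 0 with a median of -0.45. Their median TE difference was -0.62, or -0.45 relative to that of all transcripts, and 76 of 82 lay below the median of all. Single differences were mostly under 2-fold, and 9 of 82 members passed it toward lower TE, beside 6.81% of all transcripts. For C3 against the control the median TE difference of the same list was 0.03, with the Ribo-Seq library used by its title. With C3 as the control it was -0.70, and under equal column sums it was -0.36.

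The start sequences of the 6 ribosomal protein genes with the lowest TE difference show that these 6 do not share one kind of 5′ end. The lines give the first 25 bases from the gene start annotated by RefSeq in GRCh38.p14, 5′ to 3′ on the transcribed strand, with the unbroken pyrimidine run that starts at a C in capitals.
RPL7L1: gtagctaggagcggacgccataggt
RPL36AL: CCTgttaggcgagagctgcgaaagg
RPL26L1: ggcgaacgaaacgcggagctcggga
RPL39: CCCTCCTCTTCCTTTCTCCgccatc
RPL10: aaatatacgtctgtcacagttaacg
RPL35A: CTTCTCTTaccgccatcttggctcc
They lie at chr6:42879616-42879640 (plus strand), chr14:49620602-49620626 (minus), chr5:172958729-172958753 (plus), chrX:119791606-119791630 (minus), chrX:154398065-154398089 (plus) and chr3:197950190-197950214 (plus), in the annotated 5′ end of each gene. RPL39 opens with a run of 19 pyrimidines and RPL35A with 8, whereas RPL7L1, RPL26L1 and RPL10 have none at the annotated start. The annotated start may not be the one these cells use. RPL7L1, RPL36AL and RPL26L1 are related copies of other ribosomal protein genes, and how reads were split between copies is uncertain.

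RPL7L1 was at 59.2 FPKM in the control and 65.1 FPKM at day 5 in RNA, and its footprints at 197 and 81.3 FPKM, a TE difference of -1.41. RPL39 RNA was at 575 and 678 FPKM and its footprints at 901 and 506 FPKM. RPL35A RNA was at 176 and 238 FPKM and its footprints at 1345 and 894 FPKM. In each case footprints were lower while RNA was the same or higher. The acidic stalk protein RPLP1 (TE difference 0.25) and RPS28 (0.13) were the 2 members with TE above 0.

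A pyrimidine tract of at least 5 bases, starting at a C on the first annotated base, was found in 43 of 67 ribosomal protein genes with a RefSeq start sequence (64.2%) and in 1104 of all 27305 promoters (4.04%). Ribosomal proteins with the tract had a median TE difference of -0.61 and those without it -0.66. Of those at least 2-fold lower in TE, 5 had the tract and 4 did not. Among counted transcripts on neither the ribosomal protein nor the translation factor list, 327 of 5783 had the tract (5.65%), with a median TE difference of -0.22, against -0.17 without it. The annotated tract thus did not separate lower from higher TE inside the ribosomal protein list.

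**Figure D2:**
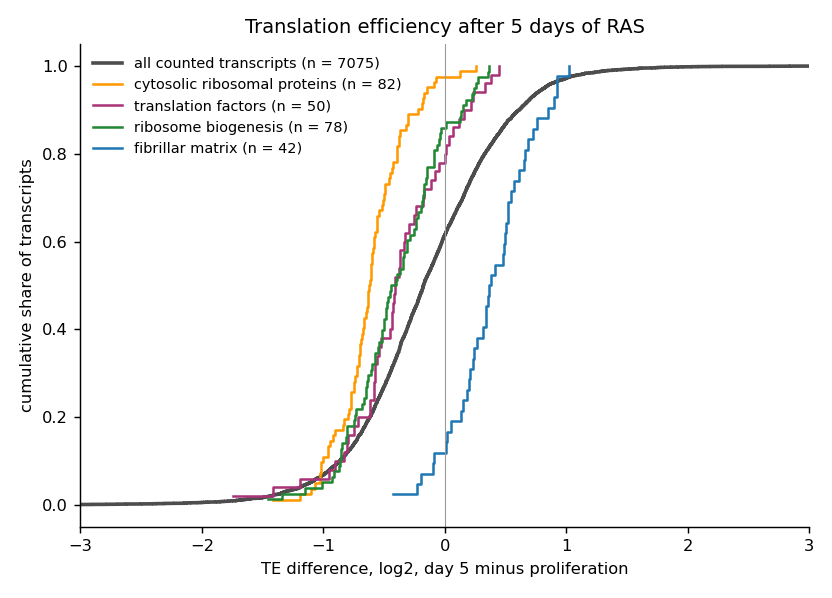
Cumulative share of transcripts (y axis) at or below a given TE difference (x axis, log2, day 5 minus proliferation) for 4 gene lists and for all 7075 counted transcripts, with values beyond 3 on either side not drawn. The ribosomal protein curve lies left of that of all transcripts (medians -0.62 and -0.18), those of translation factors and ribosome biogenesis in between, and that of the fibrillar matrix to the right (0.37).

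Translation factors and ribosome biogenesis genes lay between. The 50 counted translation factors (51 genes) had 0 RNA calls, an RNA median of 0.14 and a TE median of -0.41, or -0.23 relative to all transcripts and -0.15 under equal column sums. Lower TE by at least 2-fold was found for 3 of 50, a share no higher than the 6.81% of all transcripts. These were EIF5A2 (footprints 27.5 and 9.42 FPKM), EIF1B (90.2 and 37.2 FPKM) and the release factor ETF1 (105 and 67.5 FPKM). The cap-binding factor EIF4E and the helicase EIF4A1 had TE differences of -0.90 and -0.62, while the elongation factor EEF2 (0.00) and the poly(A)-binding protein PABPC1 (0.24) were near or above 0. The 78 counted ribosome biogenesis genes (80 genes) also had 0 RNA calls, with an RNA median of 0.20 and a TE median of -0.42, or -0.25 relative to all transcripts and -0.16 under equal column sums. Of these 4 were at least 2-fold lower in TE (UTP3, GAR1, DDX10 and PNO1), again no larger a share than among all transcripts. For this list the RNA median was -0.58 in C3 against the control and 0.78 at day 5 against C3.

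Fibrillar matrix genes went the other way. Their TE median was 0.37, which is 0.55 above that of all transcripts, and 39 of 42 members lay above the median of all, though 1 passed 2-fold (COL5A1, 1.02). The footprints of COL1A2 were at 786 and 850 FPKM while its RNA was at 384 and 219 FPKM, and those of the collagen COL6A3 at 676 and 820 FPKM with RNA at 410 and 301 FPKM. For C3 against the control the TE median of this list was -0.01.

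Single transcripts with the largest TE differences came from many functions. FAM113A footprints were at 3.83 FPKM in the control and 22.8 FPKM at day 5 with RNA at 15.4 and 12.8 FPKM, a TE difference of 2.84. G0S2 (1.86) combined higher RNA with still higher footprints. The endocytic receptor LRP1 (62.3 and 130 footprint FPKM) and the cyclin CCNL1 (6.26 and 19.1 FPKM) had TE differences of 1.56 and 1.61. PRADC1, KIAA0319L and C14orf49 had 1.72, 1.62 and 1.61, and POLR2J2, a near copy of other RNA polymerase II subunit genes, 1.74.

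Among transcripts averaging at least 10 FPKM in both assays, the lowest TE belonged to ZNF22, a zinc finger factor, with footprints at 39.8 and 2.98 FPKM and RNA at 14.6 and 10.4 FPKM, a TE difference of -3.26. MED30, a subunit of the Mediator complex (-2.93), and C12orf62, a mitochondrial protein (-2.78), followed. The mitochondrial ribosomal protein MRPS36 (footprints 81.7 and 17.2 FPKM, -2.62), the genome stability factor RMI2 (-2.48) and the synthetase complex member EEF1E1 (-2.41) differed from the control in RNA by 1.54-fold at most. The replication-dependent histones HIST1H2AC and HIST1H2BK, whose gene copies may share reads, had TE differences of -2.50 and -2.34, with RNA log2 ratios of 1.18 and 1.35. Most histone messages of this class lack a poly(A) tail, and the RNA-Seq libraries were made from poly(A) RNA; the part of this in the TE values was not tested.

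Among transcripts with RNA calls and at least 10 FPKM in both assays, the 8 each way with the most opposed TE are named here, most of them under 2-fold in TE. Among the higher ones LCP1 (-1.48), LCE2A (-1.28), NRIP3 (-0.94), the glutathione transferase GSTO1 (-0.94), MSMO1 (-0.93) and the lipid transfer protein PITPNC1 (-0.90) came after the histones. GSTO1 RNA was at 111 and 248 FPKM, with footprints at 320 and 373 FPKM. Among the lower ones were the cadherin FAT1 (TE difference 1.22), C8orf55 (1.19), the basement membrane proteoglycan HSPG2 (0.99), the adhesion molecule L1CAM (0.99), CDCA3 (0.97), CSF1 (0.92), PDGFRB (0.92) and IGFBP3 (0.92). L1CAM RNA was at 133 and 63.0 FPKM, with footprints at 143 and 134 FPKM.

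Members of the listed pathways with large TE differences included regulators, some of them with little RNA difference. The NF-kappaB cofactor NFKBIZ had footprints at 7.17 and 33.5 FPKM with RNA at 5.89 and 6.77 FPKM, a TE difference of 2.02. The eIF2α phosphatase subunit PPP1R15A had footprints at 33.1 and 124 FPKM (TE difference 1.10), with RNA higher too, at 84.05 and 147 FPKM. The transcription factor CEBPG had footprints at 16.1 and 1.48 FPKM (-3.17), with RNA at 11.4 and 9.4 FPKM. Of 29 p53 targets counted for TE, 5 were at least 2-fold lower and 0 higher, beside 6.81% and 2.77% of all transcripts. Yet 16 of the 29 lay above the median of all. Among the lower ones GADD45A, TP53I3, RRM2B and PMAIP1, all with RNA above the control, had TE differences of -1.02, -1.12, -1.19 and -1.72. PLK3 and SESN2 went the other way (0.97 and 0.72). MYBL2, lower in RNA, had footprints of 8.28 and 8.83 FPKM (TE difference 1.58). The spindle gene SKA1 had footprints of 21.8 and 5.01 FPKM (-1.77).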

How the data were processed

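The authors sequenced all libraries on an Illumina HiSeq instrument. Per the study's methods, reads were aligned with Bowtie to protein-coding transcripts of Ensembl release 65, 1 isoform per gene with the longest coding sequence, plus rRNA, and uniquely mapped reads were kept. The submitters' processing notes name hg19. RNA-Seq came from poly(A) RNA, and Ribo-Seq from monosomes of cycloheximide-treated cells after RNase I. The deposited values are FPKM, over the whole transcript for RNA-Seq and over the coding sequence for Ribo-Seq, with values below 1 set to 1 by the authors. Replicates of the same run were pooled in the table, so 1 column stands for 2 libraries of the control, of quiescence and of day 5 RNA. The table gives no depth in reads, and FPKM keeps no counting error.

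From the 12 columns, log2 ratios and TE differences were computed with Python 3.11.15 and pandas 2.3.3, always against the control of the same run, as the study's methods do because of a sequencer-run effect. Transcripts with a mean of at least 5 FPKM over the compared columns were counted (for TE, in both assays). No statistical test was made. Calls were checked on simulated data with less spread than that between the 2 proliferating columns, so the check does not measure how often calls are false here. The named transcripts are the 12 highest and 12 lowest in RNA (mean of at least 10 FPKM, Ribo-Seq ratio of the same sign), the 8 highest and lowest in TE, the 8 each way with RNA and TE opposed, and members of 23 gene lists. The members and lists were chosen with earlier results of these data known. Gene start sequences came from RefSeq promoters (GRCh38.p14), in which 8023 of 9699 symbols were found. Groups follow sample titles, and the condition fields of the Ribo-Seq libraries titled C3 and S disagree with their titles. Alternatives covered the floor, the offset, the filter, the scaling, the control and the call. Some single-gene values are not reported here.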

Additional observations from a re-analysis of the deposited data

Results flagged for a closer look

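2 transcripts named in the report were at least 2-fold lower at day 5 and at least 2-fold higher at day 14, each against the control of its own run. The interferon-induced IFI6 had an RNA log2 ratio of -1.51 at day 5 (48.5 FPKM in the control and 17.0 FPKM at day 5) and of 2.65 at day 14. The adhesion molecule L1CAM had an RNA log2 ratio of -1.08 at day 5 and of 1.01 at day 14. Each value is 1 column over 1 column, and the difference was not tested.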

How the results depend on the processing

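No paired analysis was possible because the columns pool the numbered replicates, and for the same reason leaving out each replicate was not run. Counts of transcripts at least 2-fold higher and lower were 112 and 128 in RNA-Seq, 397 and 655 in Ribo-Seq and 196 and 482 in TE. Without a filter they were 172 and 194, 692 and 1000, and 553 and 858, and with a minimum mean of 20 FPKM they were 51 and 57, 116 and 276, and 19 and 148. Centring each ratio gave TE counts of 349 and 299. Equal column sums gave 394 lower in Ribo-Seq, and 453 and 240 in TE. With C3 as the control they were 373 and 447 in RNA-Seq, 656 and 1057 in Ribo-Seq, and 790 lower in TE. A cut-off sliding with the local SD gave 233 and 281 in RNA-Seq, 194 and 382 in Ribo-Seq, and 127 higher in TE. A floor of 5 FPKM and an offset of 1 FPKM kept every count within 1.5 times. The filter changes which transcripts are counted, and the sliding cut-off changes the line of the call. Centring and equal column sums shift the ratios themselves, so the Ribo-Seq and TE counts depended on the scaling. The cause of the shifts with C3 was not tested. Over all alternatives, 204 of 277 list medians, 246 of 280 RNA ratios and 200 of 224 TE differences of named transcripts moved by less than their limits. The limit of a list median was the size of its median in C3 against the control. For a single transcript it was the SD of C3 against the control. Such limits can exceed the effect, so these counts do not show stability. The matrix protease median went from 0.41 to -0.01 with C3 and counted as unmoved, under a limit of 0.67. Counts of list members called moved by more than 1.5 times in 67 of 172 cases in RNA-Seq and 103 of 209 in TE. The spread of TE values was larger at low FPKM.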
